A study of Mus musculus with 35 samples.

Results

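Regulatory T cells (Tregs) of the spleen were compared between ZT20, late in the dark phase, and ZT8, in the second part of the light phase (ZT, Zeitgeber time, hours after lights on). The comparison used 6 of the 35 RNA-seq libraries of the series, the 3 spleen libraries at ZT20 (replicates A, B and C) and the 3 at ZT8 (replicates B, C and D), chosen by tissue and time, and every expressed gene, which were 15910 of 55011 symbols. All groups were wild-type male C57BL/6 mice, retired breeders over 35 weeks of age, kept under 12 h of light and 12 h of dark. Each library was made from 1000 cells sorted in 2 passes as CD4+ CD25+, and CD25 is also carried by activated conventional T cells. The other 29 libraries, from the spleen at ZT0, ZT4, ZT12 and ZT16 and from visceral adipose tissue (VAT) at all 6 times, shared the model that estimated the spread. Nothing in the labels ties each replicate to its own mouse, and p-values therefore cover the spread between libraries, which could be technical.

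Tregs restrain other immune cells through surface receptors such as CTLA-4 and TIGIT and depend on the transcription factor Foxp3. Like most cells they hold a molecular clock, in which the activators BMAL1 and CLOCK bind E-box elements in DNA and drive their own repressors of the PER, CRY and REV-ERB families, and the PAR bZIP factors DBP, TEF and HLF carry the rhythm to output genes. In mice, which are active in the dark, ZT8 lies in the rest phase and ZT20 in the active phase, and body temperature and feeding are higher in the active phase, while blood glucocorticoids peak near its onset.

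The 6 libraries held 2554855 to 5328695 counts at ZT20 and 2069319 to 4436040 at ZT8. Levels are given as CPM, a gene's counts relative to the total of its library, scaled by trimmed mean of M values (TMM). The cells of both times carried Treg markers: Foxp3 was at 581, 553 and 507 CPM at ZT20 and 476, 466 and 465 CPM at ZT8, and Cd4 at 459, 459 and 390 CPM at ZT20 and 390, 417 and 399 CPM at ZT8. Neither Cd4 nor Il2ra, which encodes CD25, was called, nor was any of the T cell and Treg genes Cd3e, Foxp3, Ikzf2 and Ctla4. Summed B cell markers were higher at ZT20, at 2069 to 3106 CPM against 1206 to 1587 CPM at ZT8, which is the largest separation 3 against 3 libraries can show (exact permutation p = 0.1, two-sided, the smallest possible). Nearly all of that sum was Ighm, while Cd79b was at 40.6, 39.9 and 41.1 CPM at ZT20 and 29.3, 27.0 and 31.5 CPM at ZT8. The same full separation, higher at ZT20 (exact permutation p = 0.1 in each), was found in 5 of the 11 other marker sums. The 6 Treg markers summed to 2698 to 3166 CPM at ZT20 and 2502 to 2673 CPM at ZT8, and plasma cell markers, mostly Xbp1, to 223 to 244 CPM at ZT20 and 164 to 203 CPM at ZT8. Xbp1 by itself overlapped, at 176, 164 and 138 CPM at ZT20 and 151, 122 and 125 CPM at ZT8. In the same list Sdc1, Mzb1 and Tnfrsf17 were at 1.44 CPM or less in every library, and Jchain ran from 0 to 29.9 CPM. Conventional CD4 T cell markers summed to 25.1 to 28.5 CPM at ZT20 and 13.6 to 22.96 CPM at ZT8, mostly Cd40lg, with Il17a at 0 in all 6 libraries. CD8 T cell markers, mostly Cd8b1, summed to 12.9 to 20.5 CPM at ZT20 and 6.79 to 12.4 CPM at ZT8, with Cd8a at 0 in all 3 ZT20 libraries, and neutrophil markers to at most 1.13 CPM in any library. Erythroid markers reached 110 CPM in ZT20 replicate C and stood at 4.99 to 14.0 CPM in the other libraries.

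A property of the libraries differed between the times and bears on every result here. In each library, log2 CPM was regressed on the log2 merged exon length of the genes. The slope was 0.195, 0.154 and 0.0985 in ZT20 replicates A, B and C and 0.322, 0.346 and 0.337 in ZT8 replicates B, C and D. Genes of long merged exon length were thus less well represented in all 3 ZT20 libraries, and the groups did not overlap. Among the other 12 spleen libraries the slope ran from 0.122 to 0.364. Length composition and time cannot be told apart by the ZT20 and ZT8 libraries alone. Counts below are therefore also given from a second fit with this slope as a covariate, which draws on all 35 libraries. Each gene has its own coefficient on the slope in that fit. It takes out whatever varies with the slope between libraries of a group, which need not be transcript length. It thus does not separate length from time, and single genes can move either way (Nr1d2 from -2.16 to -0.80, Mgat2 from -2.46 to -3.70).

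**Figure D1:**
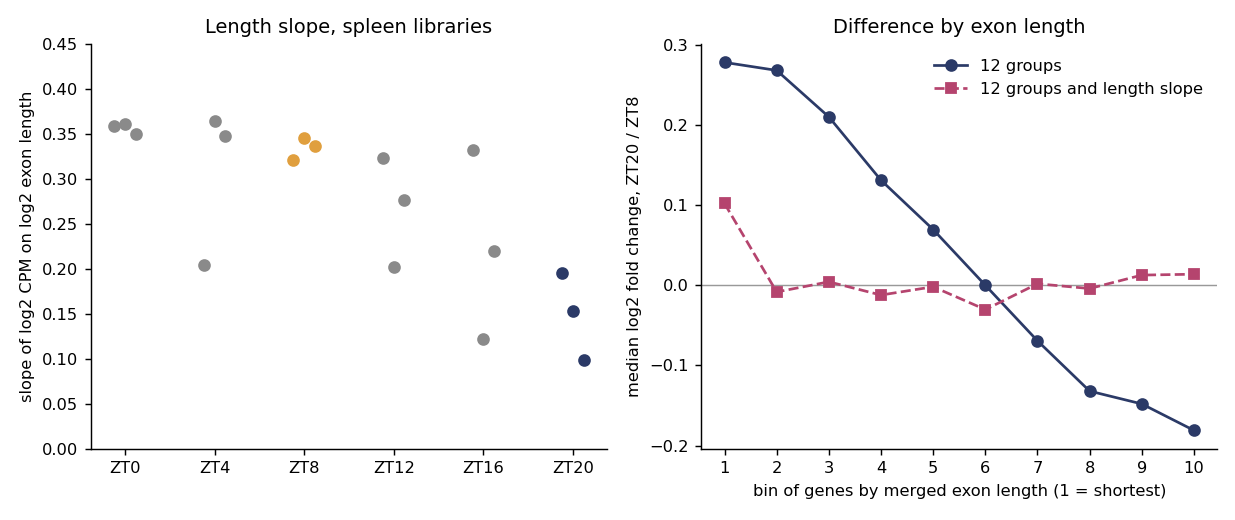
Left, slope of log2 CPM on log2 exon length in each of the 18 spleen libraries, by ZT; the ZT20 libraries lie between 0.0985 and 0.195 and the ZT8 libraries between 0.322 and 0.346. Right, median log2 fold change of ZT20 over ZT8 for genes in 10 bins of merged exon length. In the fit of the 12 groups it falls from 0.28 in the bin of the shortest genes to -0.18 in that of the longest, and with the slope as a covariate it stays between -0.03 and 0.10.

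Of the 15910 genes, 567 (3.56%) differed between the times by the edgeR quasi-likelihood test at a Benjamini-Hochberg adjusted p below 0.05. At ZT20, 250 (1.57%) were higher and 317 (1.99%) lower, and 27 of the higher and 173 of the lower genes did so by at least 2-fold. The higher genes changed by a median log2 fold change of 0.63 and the lower ones by -1.04. Scaled by library totals alone, the split was 167 higher and 403 lower, with no filter on low counts 227 and 490, and with DESeq2 769 and 631. In 563 of the 567 genes the CPM ranges of the 2 times did not overlap, against 27.8% of all genes tested. The same libraries made the calls, so statements on overlap in called genes, here and below, are descriptions. With the length slope as a covariate 68 genes (0.427%) were called, 11 higher (0.0691%) and 57 lower (0.358%), of which 8 higher and 42 lower genes were also called without it.

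The genes that differed also differed in structure. The median merged exon length was 2802.5 bases for the higher genes and 6309 bases for the lower ones, against 3898 bases for all genes tested. Of 10 bins of genes by length, that of the shortest genes held 19 higher and 2 lower genes, and that of the longest 3 higher and 69 lower genes. The median GC content of the longest transcript was 51.6% for the higher and 46.0% for the lower genes, against 48.5% for all, and among the genes called in both fits it was 49.2% for the higher and 48.0% for the lower ones. The median exon length of those genes was 3375 bases for the higher and 5820.5 bases for the lower ones.

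Fewer genes were called when any library but ZT20 replicate A was left out. Of the 597 genes called without that replicate, 432 were among the 567. Left out in turn, ZT20 replicates A, B and C gave 597, 125 and 52 genes, and ZT8 replicates B, C and D gave 202, 171 and 133. Of the 96 called genes that the text's naming rule covers, 13 were called in all 6 of these fits, and 9 of the 13 were also called with the length slope: Tigit, Pdia6, B2m and Sdf4, which were higher at ZT20, and Camk2d, Taf4b, Rac1, Ube3a and Dbf4, which were lower. Batf, Hsp90ab1 and Srgn (higher) and Ankle2 (lower) were called in the 6 fits but not with the slope. Of the 96 genes, 8 were called in none of the 6 fits: Bloc1s3, Cat, Dtwd2, Gata3, Gimap4, Gimap7, H2aw and Jund.

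**Figure D2:**
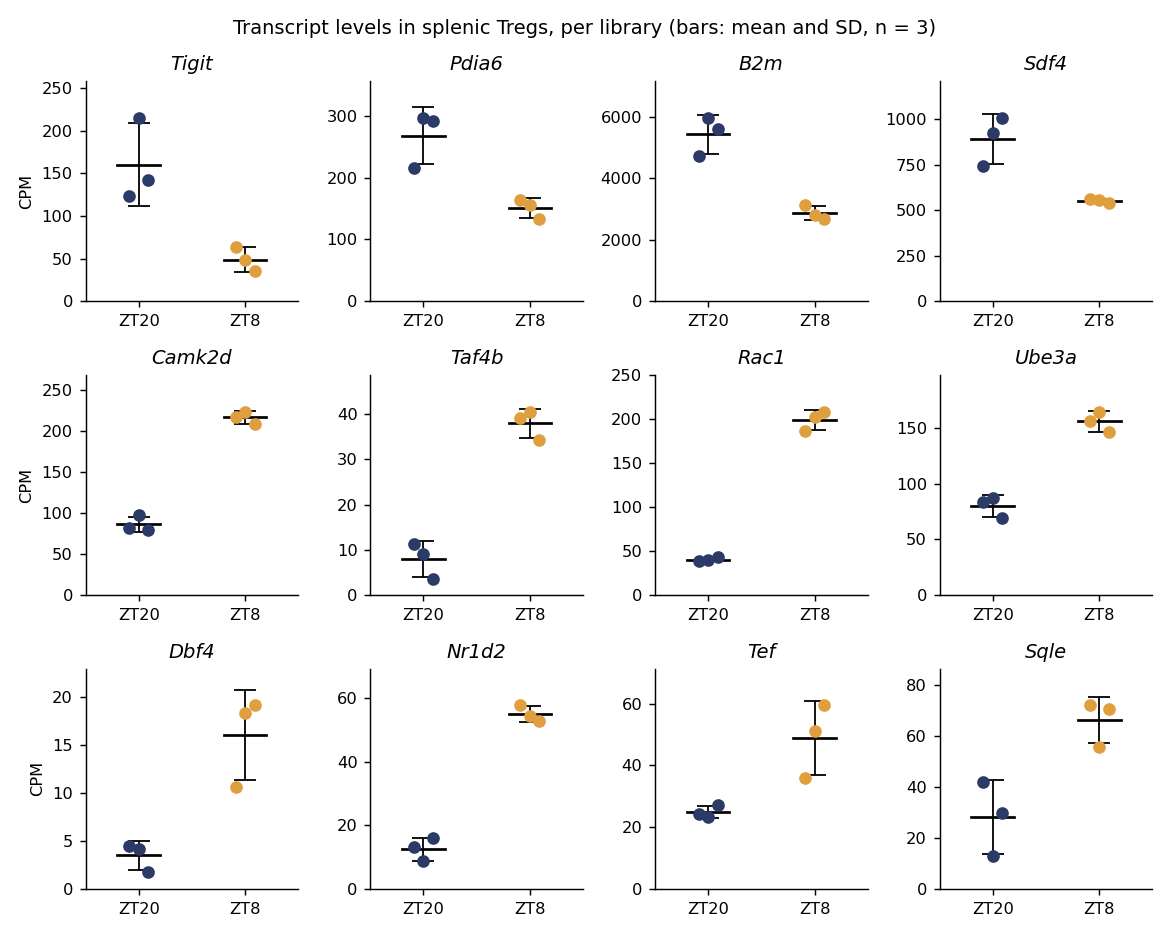
CPM of 12 genes in each spleen library (points), with the mean and SD of 3 libraries, ZT20 left and ZT8 right. In all 12 genes the points of the 2 times do not overlap; the 4 genes of the upper row are higher at ZT20, the other 8 lower.

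Tigit, which encodes an inhibitory receptor of T cells and NK cells that marks a strongly suppressive part of the Treg pool, was at 123, 215 and 142 CPM at ZT20 and 63.6, 48.3 and 35.1 CPM at ZT8 (chromosome 16, 43648867 to 43664146, mm10). The lowest ZT20 library lay above all 15 other spleen libraries, of which the highest held 108 CPM. The log2 fold change was 1.72 ± 0.25 (SE; adjusted p = 0.00047), and 1.46 ± 0.29 with the length slope (adjusted p = 0.026). Pvrig, an inhibitory receptor of the same family, was higher by 1.37 ± 0.33 (adjusted p = 0.0163), a call lost with the slope (1.17, adjusted p = 0.194).

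Pdia6, a disulfide isomerase that folds proteins in the endoplasmic reticulum (chromosome 12, 17266545 to 17284770), was at 215, 297 and 292 CPM at ZT20 and 165, 156 and 134 CPM at ZT8, a log2 fold change of 0.82 ± 0.14 (adjusted p = 0.00144), and of 0.73 ± 0.16 with the slope (adjusted p = 0.026). Sdf4, a calcium-binding protein of the Golgi (chromosome 4, 155992872 to 156013610), was at 743, 925 and 1008 CPM at ZT20 and 560, 556 and 540 CPM at ZT8 (0.69 ± 0.11, adjusted p = 0.00143; 0.43 with the slope, adjusted p = 0.0336). B2m, the light chain of MHC class I (chromosome 2, 122147686 to 122153083), was at 4728, 5966 and 5604 CPM at ZT20 and 3118, 2797 and 2670 CPM at ZT8. Its log2 fold change of 0.92 ± 0.17 became 0.36 ± 0.09 with the slope, where it was still called (adjusted p = 0.0439). Srgn, the proteoglycan that packs secretory granules, was at 568, 759 and 616 CPM at ZT20 and 298, 345 and 307 CPM at ZT8 (1.03 ± 0.17; 0.60 with the slope, adjusted p = 0.0521).

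Camk2d, a calcium- and calmodulin-dependent kinase (chromosome 3, 126596302 to 126846326), had the smallest p of all genes. It was at 82.3, 97.3 and 79.6 CPM at ZT20 and 218, 224 and 209 CPM at ZT8, a log2 fold change of -1.33 ± 0.18 (adjusted p = 0.000119), and of -1.10 ± 0.20 with the slope (adjusted p = 0.0043). Its merged exon length is large, at 22493 bases, and so is that of Ube3a, a ubiquitin ligase, at 20626 bases. Ube3a was at 84.0, 87.5 and 68.8 CPM at ZT20 and 157, 165 and 147 CPM at ZT8 (-0.96 ± 0.15, adjusted p = 0.001; -0.75 with the slope, adjusted p = 0.026).

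Rac1, a small GTPase that steers the actin cytoskeleton and cell migration (chromosome 5, 143503634 to 143528036), was at 38.9, 39.7 and 42.9 CPM at ZT20 and 187, 203 and 209 CPM at ZT8, a log2 fold change of -2.30 ± 0.41 (adjusted p = 0.00337), and of -2.38 ± 0.50 with the slope (adjusted p = 0.0336). Taf4b, a subunit of the general transcription factor TFIID (chromosome 18, 14783245 to 14900359), was at 11.4, 9.07 and 3.60 CPM at ZT20 and 39.0, 40.6 and 34.3 CPM at ZT8 (-2.17 ± 0.33, adjusted p = 0.00047; -2.21 with the slope, adjusted p = 0.00326). Dbf4, the regulatory partner of the replication kinase CDC7, was at 4.47, 4.16 and 1.80 CPM at ZT20 and 10.6, 18.3 and 19.1 CPM at ZT8 (-2.14 ± 0.39, adjusted p = 0.00274; -2.14 with the slope, adjusted p = 0.026).

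The steepest falls were in Dusp2, a nuclear phosphatase that switches off MAP kinases, and Lamp1, a glycoprotein of the lysosomal membrane. Dusp2 (chromosome 2, 127336159 to 127338376) was at 33.4, 22.7 and 31.7 CPM at ZT20 and 326, 380 and 315 CPM at ZT8, a log2 fold change of -3.54 ± 0.80 (adjusted p = 0.0181), and of -3.76 with the slope (adjusted p = 0.0778). Lamp1 (chromosome 8, 13159161 to 13175338) was at 61.6, 35.7 and 19.5 CPM at ZT20 and 241, 326 and 301 CPM at ZT8 (-2.86 ± 0.70, adjusted p = 0.0259; -3.14 with the slope, adjusted p = 0.0936), and was called in 1 of the 6 fits that left out a library. Mgat2, which branches N-linked sugars in the Golgi, was at 12.6, 24.2 and 25.2 CPM at ZT20 and 106, 120 and 111 CPM at ZT8 (-2.46 ± 0.58, adjusted p = 0.0203). Phf13, a chromatin reader, was at 8.26, 3.97 and 3.24 CPM at ZT20 and 29.7, 27.2 and 32.4 CPM at ZT8 (-2.47 ± 0.50, adjusted p = 0.0056). With the slope the log2 fold changes were -3.70 for Mgat2 (adjusted p = 0.00326) and -2.48 for Phf13 (adjusted p = 0.0414). Mgat2 was called in 1 and Phf13 in 5 of the 6 fits that left out a library.

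The other spleen times show where these genes stand out. In 9 of the 12 steepest falls all 3 ZT8 libraries lay above all 12 spleen libraries at ZT0, ZT4, ZT12 and ZT16, and in 1 of the 12, Dbf4, the ZT20 libraries lay below all of those. Dusp2 was at 23.6 to 31.3 CPM at ZT0 and Rac1 at 40.3 to 58.3 CPM, both overlapping the ZT20 range. Of the 12 steepest rises, 2 (Tigit and Cacna1a, a calcium channel subunit) had all ZT20 libraries above those 12 libraries, and 4 (Zfp300, Map6, Pglyrp1 and H2aw) were already higher at ZT0 than at ZT8 without overlap. The ZT20 and ZT8 libraries chose these genes, so the counts are a description.

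The remaining steep rises were Il1r2, the decoy receptor for interleukin 1, Zfp300, Ctla2a, Map6, Abhd4, Ubl5, Pglyrp1, H2aw and S100a6, with log2 fold changes between 1.09 (S100a6) and 2.07 (Il1r2). Il1r2 was at 55.9, 169 and 104 CPM at ZT20 and 42.0, 28.0 and 9.40 CPM at ZT8. None of these 9 was called with the slope. The remaining steep falls, Nr1d2 aside, were Bloc1s3 (-2.70), Sft2d3 (-2.47), Dtwd2 (-2.36) and Ankle2 (-2.14), of which Bloc1s3, a subunit of a complex that builds lysosome-related organelles, was called with the slope (-4.41, adjusted p = 0.00326) but in none of the 6 fits that left out a library.

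**Figure D3:**
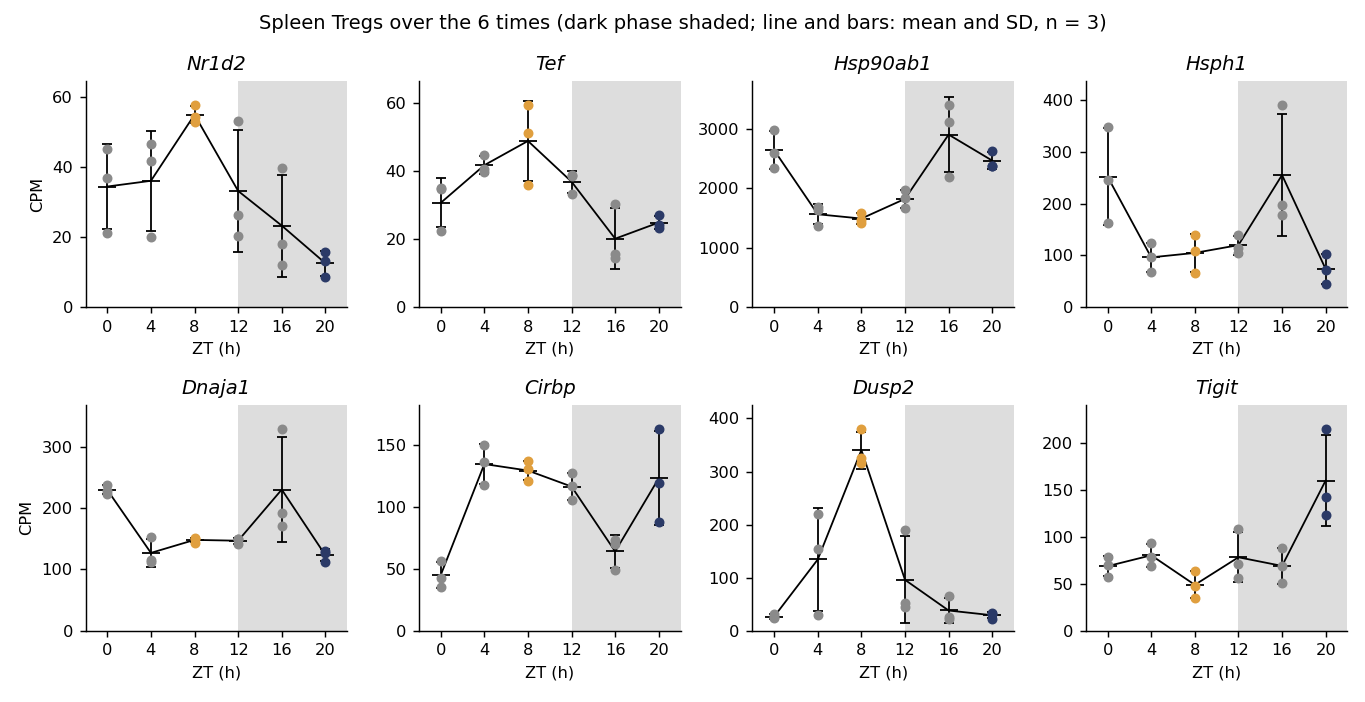
CPM of 8 genes in the 18 spleen libraries over the 6 times (points; line and bars, mean and SD of 3 libraries; dark phase shaded). Dusp2 stands at 315 to 380 CPM at ZT8 and at 22.7 to 33.4 CPM at ZT20, Tigit is highest at ZT20, and the ZT20 means of Hsph1, Dnaja1 and Cirbp are nearer their ZT8 than their ZT16 and ZT0 means.

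Of the 19 core clock genes 2 were called, both lower at ZT20, where 1.99% of all genes tested were called lower. Nr1d2, which encodes the repressor REV-ERB beta, was at 13.1, 8.69 and 15.9 CPM at ZT20 and 57.7, 54.5 and 52.8 CPM at ZT8 (chromosome 14, 18204054 to 18239127). Its log2 fold change was -2.16 ± 0.52 (adjusted p = 0.0235), and -0.80 ± 0.33 with the slope (adjusted p = 0.492). Tef, a PAR bZIP activator of clock output genes, was at 24.3, 23.4 and 27.0 CPM at ZT20 and 36.1, 51.3 and 59.5 CPM at ZT8 (chromosome 15, 81802421 to 81826863), a log2 fold change of -0.99 ± 0.24 (adjusted p = 0.0193), and of -0.77 with the slope (adjusted p = 0.349). Of the 6 fits that left out a library, Nr1d2 was called in 1 and Tef in 2. Over the 6 times in spleen, from ZT0 to ZT20, Nr1d2 averaged 34.5, 36.1, 55.0, 33.2, 23.3 and 12.5 CPM and Tef 30.7, 41.8, 48.9, 36.9, 20.2 and 24.9 CPM. Both had their highest mean at ZT8.

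The 17 other clock genes were not called, nor was any clock gene with the slope. Per1, a repressor that also answers glucocorticoids, was at 34.6, 35.9 and 45.4 CPM at ZT20 and 19.9, 26.4 and 31.5 CPM at ZT8 (0.55 ± 0.17, adjusted p = 0.0554). Arntl, the gene of BMAL1, was at 76.1, 53.7 and 50.5 CPM at ZT20 and 50.5, 46.1 and 36.5 CPM at ZT8 (0.45 ± 0.20, adjusted p = 0.217), and the ranges met near 50.5 CPM. Rora, an activator of Arntl, had a log2 fold change of 0.51 ± 0.17 (adjusted p = 0.0778), Cry1 of -0.50 ± 0.26 (adjusted p = 0.28), Bhlhe40 of 0.68 ± 0.40 (adjusted p = 0.384) and Dbp of -0.11 ± 0.38 (adjusted p = 0.931). Clock (-0.16), Per2 (-0.40), Per3 (-0.38), Cry2 (-0.11), Nfil3 (0.10), Hlf (-0.13) and Ciart (-0.06) were small or imprecise, and Npas2 and Bhlhe41 were close to 0 counts. Nr1d1, the other REV-ERB gene, was at 2.88 to 4.91 CPM at ZT20 and 2.19 to 3.39 CPM at ZT8, a log2 fold change of 0.40 ± 0.49 (adjusted p = 0.732).

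The promoters of the 2 called clock genes were searched for the E-box CACGTG on both strands, in the window from 250 bases before to 50 bases after the start given by RefSeq (GRCm38.p6). Tef has 2 such windows, and each held 1 E-box (in capitals), starting 127 and 138 bases before the start. The window of Nr1d2 held none. They are shown because both genes belong to the loop that acts through this element.
Tef, chr15:81802423-81802722, plus strand: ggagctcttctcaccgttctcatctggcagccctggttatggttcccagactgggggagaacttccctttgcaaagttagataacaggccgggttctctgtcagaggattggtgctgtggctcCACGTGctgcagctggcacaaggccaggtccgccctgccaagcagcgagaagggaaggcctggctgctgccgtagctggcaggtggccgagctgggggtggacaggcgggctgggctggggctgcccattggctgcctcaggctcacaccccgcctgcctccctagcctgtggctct
Tef, chr15:81811164-81811463, plus strand: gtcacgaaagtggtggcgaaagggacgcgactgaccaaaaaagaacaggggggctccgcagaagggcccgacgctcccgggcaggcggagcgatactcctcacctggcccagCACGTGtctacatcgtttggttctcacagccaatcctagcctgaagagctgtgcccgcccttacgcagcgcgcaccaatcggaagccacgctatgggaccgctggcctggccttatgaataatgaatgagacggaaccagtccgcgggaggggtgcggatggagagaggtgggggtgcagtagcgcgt
Nr1d2, chr14:18239057-18239356, minus strand: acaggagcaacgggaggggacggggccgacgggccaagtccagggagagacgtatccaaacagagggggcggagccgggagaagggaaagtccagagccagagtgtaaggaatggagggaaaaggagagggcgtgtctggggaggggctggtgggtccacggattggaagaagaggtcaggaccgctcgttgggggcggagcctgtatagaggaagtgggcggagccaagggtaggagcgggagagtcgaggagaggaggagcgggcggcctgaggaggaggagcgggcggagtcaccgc
An E-box was in the window of 21 of 195 higher genes with a RefSeq promoter (10.8%), 38 of 255 lower genes (14.9%), 11.5% of genes tested and 8.09% of all genes. The D-box (TTATGTAA or TTACGTAA), the element of PAR bZIP factors, was in 0 of 195 higher genes, 5 of 255 lower genes (1.96%) and 0.933% of genes tested, and the ROR element TAGGTCA in 2.05% of the higher, 1.18% of the lower and 2.32% of the tested genes. A match of letters is not a binding site.

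Genes of Treg identity and suppression were higher where they were called. Of 20 core Treg genes 5 were higher and 0 lower at ZT20, with a list median log2 fold change of 0.36 (0.02 over all genes tested). Of all genes tested 1.57% were called higher and 1.99% lower, the shares to set beside the counts of each list. Besides Tigit, the costimulatory receptor gene Tnfrsf18 (GITR) was at 433, 595 and 515 CPM at ZT20 and 338, 332 and 350 CPM at ZT8 (0.60 ± 0.13, adjusted p = 0.0107). The others were Tnfrsf4 (OX40; 0.72 ± 0.18, adjusted p = 0.0222), the folate receptor family gene Izumo1r (0.80 ± 0.21, adjusted p = 0.0327) and the actin-capping gene Capg (0.59 ± 0.14, adjusted p = 0.02). The sums of conventional CD4 and CD8 T cell markers moved the same way as these genes and those of T cell receptor signalling below, and their part was not tested. Tigit alone was called with the slope, and the list's median was then 0.26. Foxp3 (0.22, adjusted p = 0.299), Ctla4 (0.35, adjusted p = 0.125) and Il2ra (0.05, adjusted p = 0.874) were not called. Lag3, another inhibitory receptor, was at 52.0, 111 and 98.4 CPM at ZT20 and 37.3, 34.0 and 24.3 CPM at ZT8 (1.45, adjusted p = 0.158).

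Of 22 effector Treg genes 3 were higher and 0 lower. Icos, a costimulatory receptor that sustains effector Tregs, was at 244, 369 and 274 CPM at ZT20 and 163, 177 and 131 CPM at ZT8 (0.92 ± 0.20, adjusted p = 0.0112). Batf, a transcription factor of tissue and effector Tregs, was at 84.3, 158 and 146 CPM at ZT20 and 66.6, 77.5 and 54.8 CPM at ZT8 (0.96 ± 0.18, adjusted p = 0.00337). The third was Gata3 (0.50 ± 0.15, adjusted p = 0.0466). The list's median was 0.51, and 0.42 with the slope, where no member was called (Batf 0.67, adjusted p = 0.146). Of 15 resting Treg genes 0 were called, with Id3 at 0.56 (adjusted p = 0.243) and Il7r at 0.20 (adjusted p = 0.473). In the trafficking list of 26 genes Selplg, the selectin ligand PSGL-1, was higher (0.48 ± 0.13, adjusted p = 0.0374) and the integrin chain Itgb1 was lower, at 78.0, 69.1 and 32.1 CPM at ZT20 and 127, 156 and 160 CPM at ZT8 (-1.29 ± 0.31, adjusted p = 0.0202). Neither was called with the slope.

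T cell receptor signalling had 4 of 27 genes higher and 1 lower, against 1.57% and 1.99% of all genes tested. Cd3d, a chain of the receptor complex, was at 422, 489 and 572 CPM at ZT20 and 318, 289 and 286 CPM at ZT8 (0.73 ± 0.15, adjusted p = 0.00692). Cd3g, another chain (0.68 ± 0.14, adjusted p = 0.0067), and the proximal kinases Lck (0.58 ± 0.13, adjusted p = 0.0112) and Zap70 (0.55 ± 0.12, adjusted p = 0.0117) were higher too. In the NF-kB and TNF family list 5 of 22 were higher and 0 lower. Nfkbia, an inhibitor of NF-kB, was at 782, 990.3 and 1052 CPM at ZT20 and 573, 692 and 592 CPM at ZT8 (0.60 ± 0.15, adjusted p = 0.0203). The inhibitor gene Nfkbie (0.60, adjusted p = 0.0304) and the lymphotoxin gene Ltb (0.51, adjusted p = 0.0296) were also higher. Tnfrsf4 and Tnfrsf18 are in this list as well. Nfkbia was also the single called gene of the 18 glucocorticoid-responsive genes. Of 29 cytokine receptor and JAK-STAT genes the common gamma chain gene Il2rg was higher (0.64 ± 0.16, adjusted p = 0.0203), and Stat5b, a transducer of interleukin 2 signals, was lower, at 129, 107 and 110 CPM at ZT20 and 230, 228 and 201 CPM at ZT8 (-0.93 ± 0.21, adjusted p = 0.0114). None of the genes named in this paragraph was called with the slope; Cish, a feedback inhibitor of STAT5 signals, was called only there (-0.46, adjusted p = 0.0442; -0.16 without it).

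The immediate early list, genes that respond fast to stimulation, was called in both directions. Of 25 genes, Zfp36l1 was higher (0.56 ± 0.16, adjusted p = 0.045) and Dusp2 and the AP-1 gene Jund (-1.56 ± 0.46, adjusted p = 0.0495) lower. Of 17 genes of the BCL2 family list Bcl2a1b (0.93, adjusted p = 0.0336) and Bcl2a1d (2.99, adjusted p = 0.00742), near-identical copies between which reads can be split, were higher. Bcl2a1d had few counts, at 1.55, 3.78 and 4.68 CPM at ZT20 and 0.85, 0.20 and 0.28 CPM at ZT8. Of the 6 fits that left out a library, Bcl2a1d was called in 3 and Bcl2a1b in 1. Of 22 interferon response genes 3 were higher and 0 lower: Isg20 (0.78), Igtp (0.51) and Bst2 (0.81). None of these was called with the slope (Dusp2 at adjusted p = 0.0778).

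Antigen presentation by MHC class I had the largest called share of the 30 lists. Its list median was 0.48, and 8 of 15 were higher (1.57% of all genes tested) and 0 lower. Beside B2m these were the heavy chain genes H2-K1 (0.49), H2-D1 (7425, 8446 and 8439 CPM at ZT20, 5276, 5362 and 5262 CPM at ZT8; 0.61 ± 0.13, adjusted p = 0.00775), H2-Q7 (0.52) and H2-T23 (0.60), the peptide-loading gene Tapbp (0.39) and the immunoproteasome subunits Psmb8 (0.56) and Psmb10 (0.74). B2m was the single member called with the slope, at a list median of 0.18. Heavy chain genes are close copies, between which reads are uncertain. Beside the proteins of antigen presentation, 4 of 8 GIMAP genes, GTPases of lymphocyte survival, were higher (Gimap4, Gimap5, Gimap7 and Gimap9, with log2 fold changes of 0.64 to 0.85), and 0 with the slope. The sums of B, plasma, conventional CD4 and CD8 T cell markers, given above, moved the same way as both groups, and their part was not tested.

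Of 18 heat shock genes 1 was higher and 0 lower, against 1.57% and 1.99% of all genes tested. Hsp90ab1, the constitutive cytosolic HSP90, was at 2382, 2382 and 2635 CPM at ZT20 and 1468, 1590 and 1413 CPM at ZT8 (0.73 ± 0.13, adjusted p = 0.00247; 0.43 with the slope, adjusted p = 0.0811). In the contrast of neighbouring times, the mean of ZT16 and ZT0 minus the mean of ZT4 and ZT12, which uses 12 spleen libraries outside ZT20 and ZT8, 19 genes (0.119%) were called, and 8 of the 18 heat shock genes were among them, all higher at ZT16 and ZT0. Hsp90ab1 was one of these (0.71 ± 0.09, adjusted p = 2.03e-05). The others were Hsph1, Dnaja1, Chordc1, Stip1, Hspa8, Fkbp4 and Hspa1a, the last close to 0 counts (spleen means of 0 to 2.77 CPM, adjusted p = 0.0476). At ZT20 several of these stood near their light-phase level. Hsph1, a nucleotide exchange factor for HSP70, averaged 251.7, 96.0, 105, 120, 255 and 73.6 CPM from ZT0 to ZT20, and Dnaja1, an HSP70 cochaperone, 229.5, 127, 148, 147, 230.1 and 123 CPM.

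Cirbp and Rbm3, whose transcripts accumulate at lower body temperature, ran the other way in the neighbouring times. Both were lower at ZT16 and ZT0 than at ZT4 and ZT12 (Cirbp -1.22, adjusted p = 1.25e-05; Rbm3 -0.50, adjusted p = 0.00195). At ZT20 Cirbp was at 87.3, 119 and 163 CPM against 130, 120 and 136 CPM at ZT8 (-0.08, adjusted p = 0.898). Rbm3 was at 170, 149 and 186 CPM against 221, 204 and 205 CPM at ZT8 (-0.32, adjusted p = 0.11), with no overlap, and its ZT20 mean of 168 CPM lay nearer that at ZT16 (149 CPM) than that at ZT8 (209.9 CPM). ZT20 was not tested against ZT16 or ZT0. In the endoplasmic reticulum list 3 of 24 genes were higher and 0 lower: Pdia6, Pdia3 (0.53 ± 0.12, adjusted p = 0.0139) and the HSP70 of that compartment, Hspa5 (794, 880 and 902 CPM at ZT20, 642, 641 and 601 CPM at ZT8; 0.45 ± 0.11, adjusted p = 0.0164). Pdia6 alone was called with the slope. The stress factor genes Ddit3 (0.48, adjusted p = 0.328) and Atf4 (0.10, adjusted p = 0.81) were not called, and of 9 CCT chaperonin subunits 0 were.

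Splicing regulators were lower where they were called, 4 of 10 lower and 0 higher, in a list that also holds Cirbp and Rbm3. Clk1 and Clk4 encode kinases of SR splicing proteins that are more active at lower body temperature. Clk1 was at 413, 378 and 360 CPM at ZT20 and 579, 583 and 523 CPM at ZT8 (-0.55 ± 0.12, adjusted p = 0.0116). Clk4 was at 99.99, 79.2 and 68.1 CPM at ZT20 and 154, 135 and 148 CPM at ZT8 (-0.81 ± 0.19, adjusted p = 0.0141). The SR protein genes Srsf2 (-0.79, adjusted p = 0.0193) and Srsf5 (-0.47, adjusted p = 0.0446) were lower as well. All 10 members had a negative log2 fold change, with a median of -0.32 (-0.28 with the slope, 0 called).

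Among metabolic lists, sterol synthesis and handling had 4 of 30 genes lower and 1 higher, against 1.99% and 1.57% of all genes tested. The list's median was the lowest of all lists, -0.38 (-0.22 with the slope, 0 called). Sqle, the enzyme that makes squalene epoxide, was at 41.8, 12.8 and 29.9 CPM at ZT20 and 72.1, 55.9 and 70.8 CPM at ZT8 (-1.23 ± 0.29, adjusted p = 0.0154). Hmgcs1, the synthase at the entry of the pathway, was at 42.0, 34.0 and 41.4 CPM at ZT20 and 113, 102 and 89.3 CPM at ZT8 (-1.38 ± 0.38, adjusted p = 0.0427). Srebf2, the transcription factor that drives the pathway, was at 136, 92.8 and 122 CPM at ZT20 and 176, 168 and 197 CPM at ZT8 (-0.63 ± 0.15, adjusted p = 0.0193), and Cyp51, the lanosterol demethylase, had a log2 fold change of -1.04 ± 0.26 (adjusted p = 0.022). In none of these did the ranges overlap. Abcg1, which exports cholesterol, was higher, at 192, 216 and 143 CPM at ZT20 and 94.2, 124 and 120 CPM at ZT8 (0.71 ± 0.16, adjusted p = 0.0111). With the slope the log2 fold changes were -0.77 for Sqle, -0.59 for Cyp51, -0.31 for Srebf2, -0.61 for Hmgcs1 and 0.60 for Abcg1 (adjusted p = 0.143 or higher in each).

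The sterol element TCACNCCAC, read on both strands, was found 137 bases before the start of Hmgcs1 (in capitals) and in neither the Cyp51 nor the Srebf2 window. It was in 3 of 195 higher and 4 of 255 lower genes (1.54% and 1.57%) and in 1.35% of genes tested. The Hmgcs1 window is shown as the one match among the called sterol genes with a promoter entry, and was picked after its values were seen.
Hmgcs1, chr13:119690101-119690400, plus strand: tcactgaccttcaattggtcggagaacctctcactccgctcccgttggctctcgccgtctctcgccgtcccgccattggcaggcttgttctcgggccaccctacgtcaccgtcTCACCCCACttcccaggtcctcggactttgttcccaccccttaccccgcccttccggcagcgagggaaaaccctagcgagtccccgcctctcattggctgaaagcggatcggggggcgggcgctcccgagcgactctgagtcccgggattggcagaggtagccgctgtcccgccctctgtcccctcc

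Fatty acid oxidation had 1 of 19 genes higher, the mitochondrial carrier Ucp2 (0.60 ± 0.16, adjusted p = 0.0259), and 1 lower, Cpt1a, which admits long fatty acids to mitochondria (43.2, 31.9 and 21.6 CPM at ZT20, 93.3, 92.8 and 78.8 CPM at ZT8; -1.43 ± 0.36, adjusted p = 0.0272). Glycolysis had 2 of 20 higher, Gpi1 (0.47) and Aldoa (0.59), and 1 lower, the hexokinase gene Hk1 (105, 94.1 and 73.2 CPM at ZT20, 181, 178 and 157 CPM at ZT8; -0.91 ± 0.24, adjusted p = 0.0295). With the slope Hk1 was at -0.15 (adjusted p = 0.934) and Hif1a, the oxygen-responsive factor, was called at 0.66 (adjusted p = 0.0371; -0.04 without it). Of the redox and iron list 4 of 22 were higher, Prdx6, Cat, Fth1 and Txn1, and Txnrd1, which recycles thioredoxin, was lower (30.1, 22.3 and 22.7 CPM at ZT20, 59.0, 74.8 and 49.0 CPM at ZT8; -1.28 ± 0.26, adjusted p = 0.0054; -1.08 with the slope, adjusted p = 0.0946). Fatty acid synthesis (11 genes), amino acid and mTORC1 (17 genes) and proliferation (20 genes) had 0 called; their members with the smallest p were Acly (-1.12, adjusted p = 0.0742), Slc38a2 (-1.06, adjusted p = 0.0902) and Pcna (0.45, adjusted p = 0.104).

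Lists of the protein and energy machinery, whose merged exon lengths are mostly short, had positive medians without the slope and medians near 0 with it. The nuclear respiratory chain had 11 of 75 genes higher and 0 lower (median 0.51), such as Uqcrc1 (0.56 ± 0.13, adjusted p = 0.0193) and Ndufs7 (0.74, adjusted p = 0.0248). The proteasome had 7 of 37 higher (median 0.42), such as Psmb5 (54.7, 61.8 and 65.6 CPM at ZT20, 28.0, 33.4 and 35.4 CPM at ZT8; 0.90 ± 0.19, adjusted p = 0.00719). Cytosolic ribosomal proteins had 6 of 75 higher (median 0.44) and mitochondrial ribosomal proteins 3 of 77 (median 0.37). The mitochondrial genome had 1 of 11, mt-Co1 (median 0.54), and 0 were lower in each. Of all genes tested 1.57% were higher. The median exon length of these lists ran from 957 bases (mitochondrial genome) to 2820 bases (proteasome). With the slope 0 members of the 5 lists were called, and their medians were 0.06, 0.05, 0.00, -0.01 and -0.01.

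**Figure D4:**
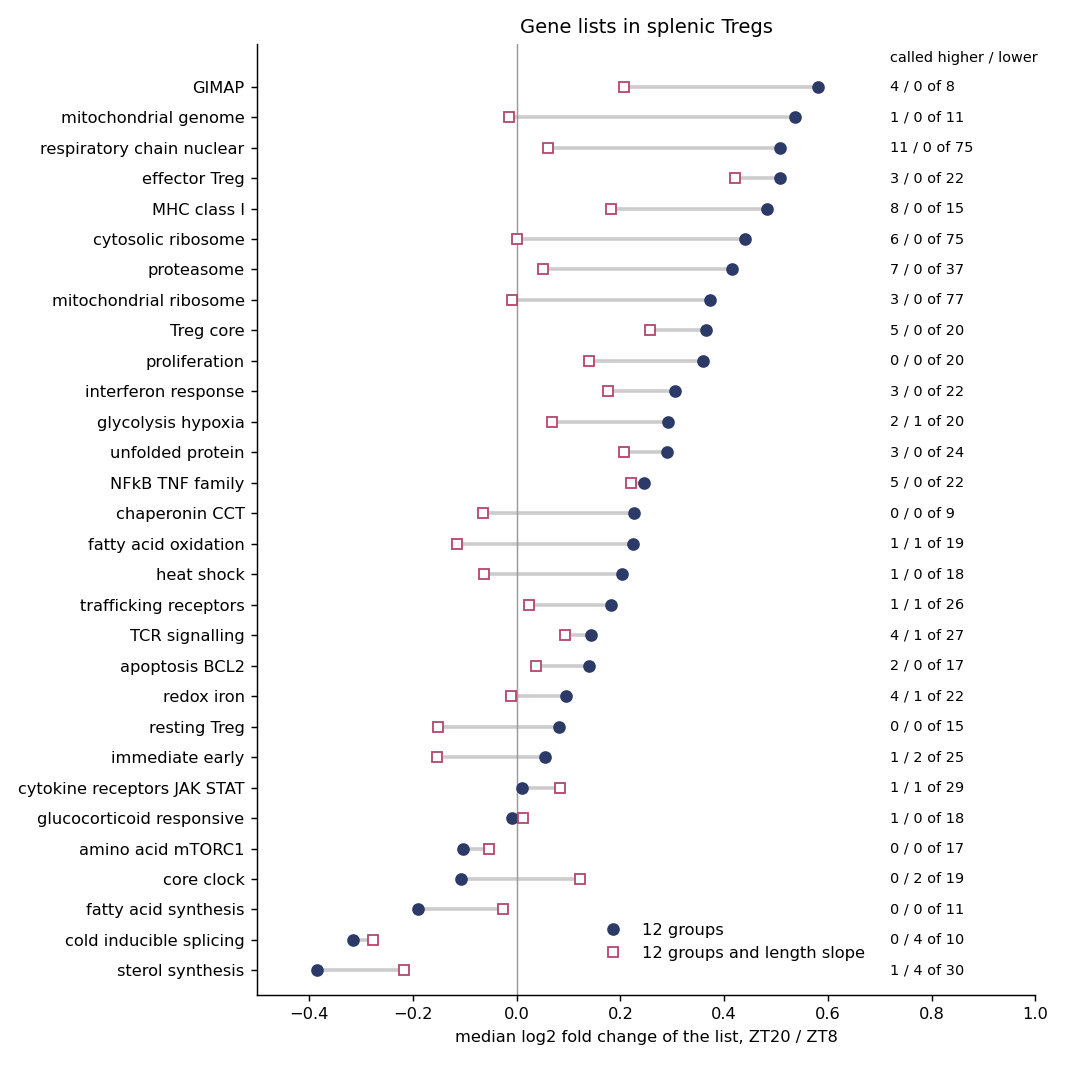
Median log2 fold change of ZT20 over ZT8 for 30 gene lists in the fit of the 12 groups (circles) and with the length slope as a covariate (squares), with the number of members called higher and lower of those tested in the first fit. GIMAP genes have the highest median (0.58) and sterol synthesis the lowest (-0.38); the medians of the respiratory chain, the proteasome and the ribosomes lie near 0 with the slope.

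The contrast of neighbouring times compares libraries of neither ZT20 nor ZT8, although they entered the estimate of the spread and, in the second fit, of the slope's coefficient. Of the 250 higher genes 179 (71.6%) were also positive there, and of the 317 lower genes 216 (68.1%) were also negative, against 52.7% of all genes with the same sign in both contrasts. The sizes were small, with median log2 fold changes of 0.07 for the higher and -0.10 for the lower genes. They are not on the scale of the ZT20 and ZT8 changes. The neighbouring contrast averages times on either side of ZT20 and ZT8, and the genes were chosen for their change between ZT20 and ZT8. Of the genes called at ZT20 against ZT8, the contrast of neighbouring times called Hsp90ab1 and Syne3, a nuclear envelope protein, in the same direction. Syne3 was lower in both (-0.89, adjusted p = 0.0141 at ZT20 against ZT8; -0.71, adjusted p = 0.0244 in the neighbouring times). Of the 42 lower genes called in both fits 41 were also negative in the neighbouring times, and of the 8 higher ones 5 were positive.

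In VAT Tregs 2234 genes (14%) differed between ZT20 and ZT8, 1143 higher (7.18%) and 1091 lower (6.86%), but 1 with the slope; the slopes there were 0.0105 and 0.0360 at ZT20 and 0.283 to 0.358 at ZT8. Of the genes called in spleen, 241 of the 250 higher (96.4%) and 303 of the 317 lower (95.6%) had the same sign in VAT, against 67.8% of all genes. Nr1d2 (-2.58 ± 0.60, adjusted p = 0.00505) and Tef (-1.54 ± 0.29, adjusted p = 0.000679) were lower at ZT20 in VAT too, and neither was called there with the slope (Nr1d2 -0.32, adjusted p = 0.908; Tef -1.18, adjusted p = 0.399). The difference between the tissues itself was called for 1 gene (0.00629%), Sh3bgrl, with 1295 genes at an unadjusted p below 0.05. Tigit, at 0.54 ± 0.25 in VAT (adjusted p = 0.159), did not differ between the tissues past the threshold (spleen minus VAT 1.18 ± 0.36, adjusted p = 0.406), nor did Sqle (-1.64 ± 0.41), Cyp51 (-1.51 ± 0.37) and Abcg1 (0.97 ± 0.24), all at adjusted p = 0.279.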

How the data were processed

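RNA was primed with oligo-dT, amplified by PCR, made into Nextera XT libraries and read as 25-base pairs on a NextSeq500, per the labels' protocols. The authors deposited raw counts for 55011 gene symbols, which the submitters' processing notes credit to STAR 2.7.3a, featureCounts and mm10. The annotation, strand setting and treatment of multiply mapped reads were not given in the sources used here, so overlapping and antisense genes and close copies are uncertain. There were no molecular identifiers, and amplification can favour some transcript lengths.

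All 35 libraries were fitted in 12 groups of tissue and time with edgeR 4.0.16 in R 4.3.3 (filterByExpr, TMM, robust quasi-likelihood F test, 23 residual degrees of freedom), with Benjamini-Hochberg adjustment over 15910 genes at 0.05. The test was checked on simulated data in which ZT20 and ZT8 did not differ in length slope, so that check does not bear on the slope. Contrasts were ZT20 minus ZT8 in spleen, the same in VAT, their difference, and the mean of ZT16 and ZT0 minus that of ZT4 and ZT12 in spleen. Log2 fold changes are ± SE. The length slope used 15632 genes matched to GENCODE M21 (GRCm38), of which those with a mean log2 CPM of at least 3 (prior count 2) entered the regression. No pair of replicates agreed within sampling noise (chi-square per gene 4.1 to 8.3). Gene lists, members and naming rule were chosen with earlier results of these data known. A few genes that the naming rule or the lists cover are not reported here. Named otherwise were all clock genes, the 12 steepest rises and 12 steepest falls among called genes with a mean of at least 5 CPM, no overlap of the ranges and an established symbol, the 6 smallest p, and up to 4 called members of each list, or 2 with the smallest p; further members named beside them were chosen after their values were seen. Alternatives were another scaling, no filter, DESeq2 1.42.0, fewer libraries, a replicate block, the length slope and leaving out each library; the one that left out libraries of the neighbouring times was chosen after seeing the data.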

Additional observations from a re-analysis of the deposited data

Results flagged for a closer look

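Sh3bgrl, a small protein related to glutaredoxins, was the single gene whose difference between ZT20 and ZT8 itself differed between the tissues (spleen minus VAT 1.233 ± 0.22 on the log2 scale, adjusted p = 0.0252 by the edgeR quasi-likelihood test). In spleen it was at 219, 207 and 147 CPM at ZT20 and 184, 196 and 202 CPM at ZT8 (-0.02, adjusted p = 0.971). In VAT it was at 152 and 172 CPM at ZT20 and 451, 354 and 354 CPM at ZT8 (-1.25, adjusted p = 3.5e-05). With the length slope the change in VAT was -1.005 (adjusted p = 0.079), no longer called, and the difference was 1.13 (adjusted p = 0.0208). With the replicate block the difference between the tissues was called for 0 genes, so not for Sh3bgrl. The difference was called in 4 of the 11 fits that left out a library, and not without spleen ZT20 replicates A or B, spleen ZT8 replicates B or C, VAT ZT20 replicates A or C, or VAT ZT8 replicate B.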

How the results depend on the processing

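The count of 567 genes in spleen was within 1.5 times of itself with RLE factors (664), library totals (570) and no filter (717). It was 1087 with the 18 spleen libraries alone, 1739 with the 6 libraries alone, 1400 with DESeq2, 68 with the length slope, and 52 to 597 when a library was left out, lowest without ZT20 replicate C. Of the 96 called named genes, 12 were called with the slope, 84 with library totals, 80 without a filter and 17 to 85 with a library left out; none changed direction in any of these. For the neighbouring times (19 genes) the counts were 89 without a filter, 68 with spleen alone, 52 with the slope, 105 with DESeq2 and 11 to 86 with a library left out, highest without ZT16 replicate A. For VAT (2234) they were 1 with the slope and 494 to 1972 with a library left out, lowest without VAT ZT20 replicate A. For the difference between tissues (1, Sh3bgrl) they were 35 without a filter, 35 with DESeq2, 2 with the slope and 0 to 3 with a library left out. The causes were not tested. Where ZT20 in VAT was left with 1 library, that library was assumed to vary like the other groups.

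The replicate letters are shared by ZT20 and ZT8 in spleen for B and C only, and same-letter libraries did not deviate together (correlations 0.00364 and -0.0432, other pairs -0.0535 to 0.0734). With the replicate block 347 genes were called in spleen, 73 of the 96 named genes among them, and 0 for the difference between tissues, which the edgeR test without it put at 1 (1295 at an unadjusted p below 0.05).

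Depth, 2069319 counts at the least, leaves genes of a few CPM, such as Nr1d1, imprecise.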
